A study of Mus musculus with 8 samples.

Results

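The IL-6 family genes described here are 3 cytokines (Il6, Lif and Clcf1), 5 receptor chains (Il6st, Il6ra, Lifr, Osmr and Il11ra1), the transcription factor Stat3 and the inhibitor Socs3. They were followed on Affymetrix arrays in dermal fibroblasts of 4 old male C57Bl/6 mice (18 months) and 4 young male C57Bl/6 mice (2 months), with 1 array per mouse. Members were all probe sets that the platform annotation assigns to exactly 1 of these symbols, which gave 19 of the 45141 probe sets in the file and 9 of the 10 genes. Il11ra1 had no such probe set and was not analysed here. Clcf1 kept 1 probe set, because 2 others are annotated to a second gene as well. The cells were sorted from collagenase-digested skin freed of its subdermis as CD45-, CD117-, CD24-, CD31- and EpCam-negative cells carrying Pdgfra and CD34, and no mouse is labelled with a treatment or genetic change. RNA came from 5000 cells a mouse and was amplified for 21 cycles. Values are log2 expression per probe set, so a difference of 1 is a doubling. The comparison was set up to find age-related differences in the RNA of these fibroblasts.

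Cytokines of this family signal through the shared chain gp130, encoded by Il6st, joined with a chain that recognises the ligand: Il6ra for IL-6, Lifr for LIF, and Osmr for oncostatin M. Bound receptors activate Janus kinases, which phosphorylate STAT3, and STAT3 in turn induces Socs3, an inhibitor that shuts the receptor off. In skin, fibroblasts are a known source of IL-6 and LIF and a known target of oncostatin M, which leukocytes make.

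In old fibroblasts 2 ligands and 2 receptor chains of the family had higher transcript levels: Osmr (2.62-fold), Lif (1.61-fold), Il6 (1.43-fold) and Il6st (1.32-fold). Taking each gene's brightest probe set, 4 of 9 genes rose and 0 fell in limma at an adjusted p under 0.05. The members were chosen with earlier results of these data known, so the shares of all genes given beside them are no blind comparison. Among all 17097 genes 3.97% were called, 1.82% higher and 2.15% lower. At an unadjusted p under 0.05 there were 5 genes, the fifth being Il6ra, and each of the 5 was higher in old mice. That threshold was passed by 15.1% of all genes. The median change of the 9 genes was 0.28, against 0.01 for all genes. In 5 of the 9 genes every old mouse was above every young mouse, against 4.49% of all genes. All 9 lay above the median of all probe set means. A fit of only the 10560 genes above that median kept the 4 calls, and 6.38% of its genes were called. Over all 45037 probe sets tested, 5 of the 19 members were called higher and 0 lower (10 at an unadjusted p under 0.05, as were 13.4% of all probe sets), against 2.58% of probe sets called, 1.23% higher and 1.35% lower. Every old mouse was above every young mouse on 9 of the 19, against 3.96% of all probe sets. Several of the 19 read the same gene and are not independent, and the 5 called belong to Lif, Il6st and Osmr. Stat3 and Socs3, the common mediator and its inhibitor, were not called by any probe set.

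**Figure D1:**
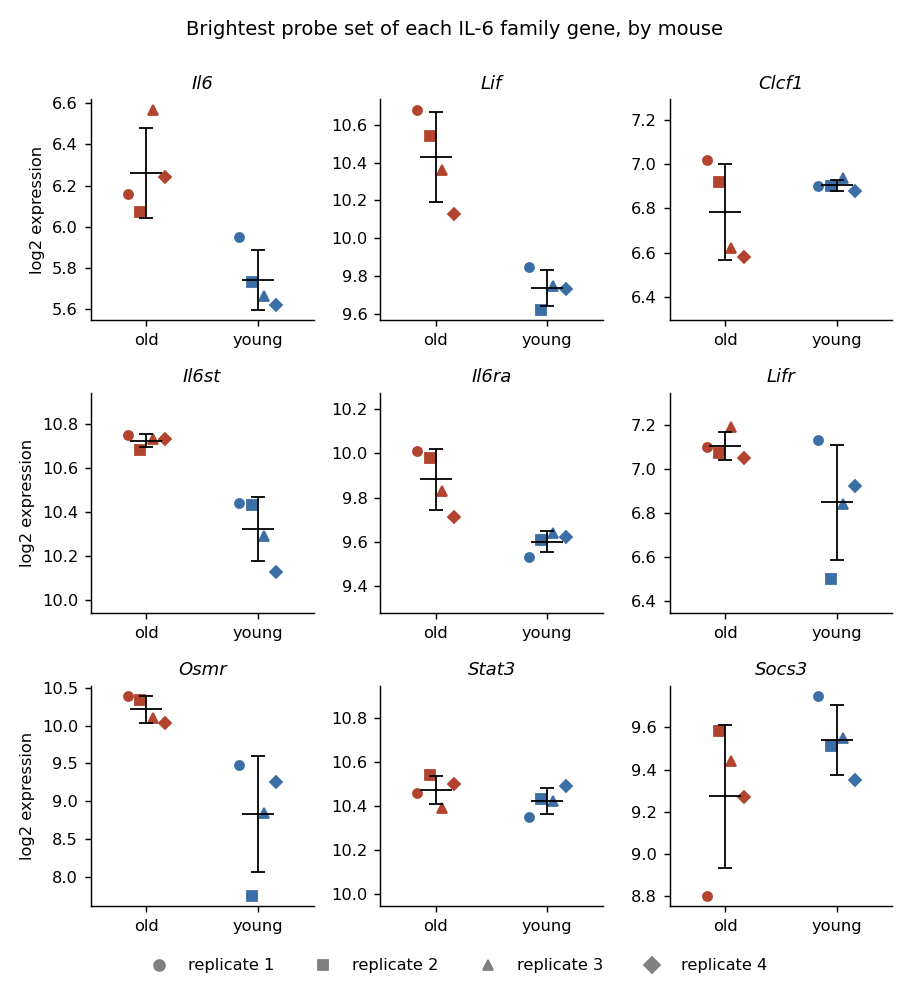
Log2 expression (vertical axis) of the brightest probe set of 9 IL-6 family genes in old mice (left, red) and young mice (right, blue), with a symbol for each replicate and the mean with its SD in black. Vertical scales differ between genes, and old and young mice do not overlap in Il6, Lif, Il6st, Il6ra and Osmr.

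The arrays had medians between 5.06 and 5.14. The median of all probe set means, 5.10, serves as the dim level, and probe sets under it are called dim. The 23 non-specific control probe sets had a median of 3.91 with single values from 2.98 to 7.20. The labelled cell type was checked against 10 fibroblast markers, of which 9 lay above the dim level, with Col1a1 at 13.08 in old and 13.13 in young mice. Of the 10, 1 was called lower and 0 higher: Thy1, at 10.79 ± 0.091 in old and 11.40 ± 0.062 in young mice (SD, n = 4 each), a change of -0.61 (limma adjusted p = 0.00176). The sorting gene Pdgfra itself was dim on the array, at 4.47 ± 0.28 in old and 5.06 ± 0.25 in young mice (SD, n = 4 each). Leukocyte genes would matter here, since leukocytes make and sense these cytokines: Ptprc, the gene of the excluded CD45, lay at 3.51 in old and 3.43 in young mice and was the lowest of 6 leukocyte markers. The other 5 included 3 above the dim level: Arhgdib at 9.14 in old and 9.36 in young mice, Laptm5 at 5.56 in old and 5.35 in young mice, and Cd52 at 5.28 in both. Summed levels of the 6 spanned 9.41 to 9.53 in old and 9.27 to 9.87 in young mice, with 0 called. Arhgdib, the brightest, weighs most in this sum and differed by -0.21. Laptm5, Coro1a, Cd53, Ptprc and Cd52 differed by 0.21, 0.16, 0.085, 0.08 and 0.005. Summed levels of 10 macrophage markers spanned 9.48 to 9.66 in old and 9.37 to 9.68 in young mice, with 0 of the 10 called and 7 of them dim. The brightest, Csf1r, lay at 8.82 in old and 8.85 in young mice and weighs most in the sum. Cd68 lay at 6.82 in old and 6.69 in young mice. Summed levels of 7 keratinocyte markers spanned 9.19 to 10.55 in old and 9.02 to 9.70 in young mice, with 0 called. Of these, Epcam, the gene of the excluded EpCam, lay at 5.45 ± 0.19 in old and 5.05 ± 0.083 in young mice (SD, n = 4 each). Its groups did not overlap, though it did not pass (limma adjusted p = 0.0584). Krt5 differed by 1.12 and also did not pass. Krt10, Krt14 and Krt15 differed by 0.35, 0.235 and 0.125, while Trp63 and Cdh1 differed by -0.33 and -0.028. The median difference of the 7 was 0.235. For 6 melanocyte markers the sums spanned 9.11 to 10.08 in old and 7.85 to 8.25 in young mice, and Mlana was the 1 of the 6 that was called (9.10 ± 0.61 in old and 6.23 ± 0.59 in young mice, SD, n = 4 each). The other melanocyte markers did not follow it: Dct and Tyr differed by 0.105 and 0.12, and Tyrp1, Pmel and Sox10 by -0.060, -0.085 and -0.0050. The difference in the sums thus rests on Mlana. The part of these other cell types in the results below was not tested. In sorted bulk samples of this kind, fewer cells that express a gene and less RNA per cell cannot be told apart.

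Among the ligands, Lif and Il6 rose and Clcf1 was not called. Lif encodes leukaemia inhibitory factor. Its brightest probe set, 1450160_PM_at, read 10.68, 10.54, 10.36 and 10.13 in old mice, against 9.85, 9.62, 9.75 and 9.73 in young mice. The lowest old mouse was 0.28 above the highest young mouse. The change was 0.69 ± 0.12 (SE), with limma adjusted p = 0.0101. A second probe set, 1421207_PM_at, read 9.20, 8.97, 9.18 and 8.63 in old mice and 8.32, 8.08, 8.14 and 8.61 in young mice, so that old replicate 4 and young replicate 4 were only 0.02 apart. It changed by 0.71 ± 0.15 (limma adjusted p = 0.0459 over all probe sets). The third, 1421206_PM_at, stayed between 3.80 and 3.98 in all 8 mice, at the level of the non-specific controls, and differed by -0.0050 ± 0.065. Lif kept its call without any single mouse (highest adjusted p = 0.0375, without old replicate 2). Its second probe set lost the call without old replicates 1, 2 or 3 or young replicates 1, 2 or 3, with adjusted p from 0.0970 to 0.123.

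Il6, the founding cytokine of the family, has 1 probe set, 1450297_PM_at. It read 6.16, 6.07, 6.57 and 6.24 in old mice, against 5.95, 5.73, 5.66 and 5.62 in young mice. All old mice were above all young mice, by a margin of 0.12 between old replicate 2 and young replicate 1. The change was 0.52 ± 0.12 (SE), with limma adjusted p = 0.0415 over genes and 0.0543 over all probe sets, so the call depends on which features share the adjustment. Its mean of 6.00 is above the dim level, but 3 of the 23 non-specific control probe sets had a higher mean. Without single mice the adjusted p lay between 0.0385 and 0.114, and the call was lost without old replicates 1, 3 or 4 or young replicates 2, 3 or 4. The change was 0.28 between mice of the lower run of title numbers and 0.77 between mice of the higher run, each run holding 2 old and 2 young mice.

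Clcf1 encodes cardiotrophin-like cytokine factor 1, which acts through the ciliary neurotrophic factor receptor. Its probe set 1450262_PM_at read 7.02, 6.92, 6.62 and 6.58 in old mice and 6.90, 6.90, 6.94 and 6.88 in young mice. The groups overlapped, with old mice on both sides of the closely spaced young mice. The difference was -0.12, with a 95% confidence interval from -0.35 to 0.11 (limma adjusted p = 0.694). It was 0.07 within the lower run of title numbers and -0.31 within the higher run.

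The promoters of the ligand genes that rose are shown because both rose in old mice and because the Il6 promoter is a textbook target of inflammatory transcription factors. Each window runs from 250 bases before to 50 bases after the RefSeq start (GRCm38.p6) and is printed 5′ to 3′ on the gene's strand. Capitals mark matches on either strand to 5 motifs: STAT (TTCNNNGAA), AP-1 (TGANTCA), the cyclic AMP element without its first T (GACGTCA), NF-kappaB (GGGNNTTNC) and C/EBP (TTGCNNAA).
Il6, chr5:30012864-30013163, plus strand: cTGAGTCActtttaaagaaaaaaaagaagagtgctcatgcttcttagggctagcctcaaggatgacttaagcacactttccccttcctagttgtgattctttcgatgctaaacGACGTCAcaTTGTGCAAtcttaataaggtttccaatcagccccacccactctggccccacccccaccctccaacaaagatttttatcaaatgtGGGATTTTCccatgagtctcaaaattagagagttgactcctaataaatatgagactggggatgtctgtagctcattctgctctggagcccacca
Lif, chr11:4257318-4257617, plus strand: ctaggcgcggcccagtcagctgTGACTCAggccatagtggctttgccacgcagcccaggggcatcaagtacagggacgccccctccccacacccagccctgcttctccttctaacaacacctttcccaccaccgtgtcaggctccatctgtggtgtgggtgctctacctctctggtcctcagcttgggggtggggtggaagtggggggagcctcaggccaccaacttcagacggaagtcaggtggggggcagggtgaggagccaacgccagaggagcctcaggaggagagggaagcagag
The Il6 window held 4 matches: AP-1 from base 2, the shortened cyclic AMP element from base 114, C/EBP from base 123 (on the reverse strand) and NF-kappaB from base 207, none of which overlap. The Lif window held 1 match, to AP-1 from base 23. Of 32851 windows of this length, 7.81% held the AP-1 letters, 3.21% the shortened cyclic AMP element, 15.2% NF-kappaB, 10.8% C/EBP and 8.30% STAT. A match describes the letters and shows no binding.

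Among the receptor chains, Osmr and Il6st rose, while Il6ra and Lifr did not pass. Osmr encodes the oncostatin M receptor chain and had the widest difference of the 9 genes. The brightest of its probe sets, 1418675_PM_at, read 10.40, 10.34, 10.10 and 10.03 in old mice, against 9.48, 7.74, 8.84 and 9.25 in young mice. The old mice lay close together at 10.22 ± 0.18 (SD, n = 4) and the young mice were spread out at 8.83 ± 0.77 (SD, n = 4), with young replicate 2 lowest. The change was 1.39 ± 0.32 (SE), or 2.62-fold, with limma adjusted p = 0.0436 over genes and 0.0613 over all probe sets.

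The other probe sets of Osmr gave changes of similar size. The second, 1418674_PM_at, read 9.81, 9.85, 9.72 and 9.82 in old mice and 8.98, 7.45, 8.33 and 8.99 in young mice, a gap of 0.73 between the groups. It changed by 1.36 ± 0.30 (limma adjusted p = 0.0497 over all probe sets). The dimmest, 1459217_PM_at, read 7.86, 7.75, 7.64 and 7.13 in old mice and 6.79, 5.99, 6.21 and 6.43 in young mice. It changed by 1.24 ± 0.20 and had the smallest adjusted p of the 3 (limma adjusted p = 0.0122), with an SD of 0.32 among old and 0.34 among young mice. Young replicate 2 was the lowest mouse on all 3 probe sets. Leaving it out, the brightest probe set changed by 1.03 (limma adjusted p = 0.0127). That probe set lost its call without old replicates 1, 2, 3 or 4 or young replicate 3 (adjusted p from 0.0847 to 0.118), and the second did so without the same mice (0.0974 to 0.126). The dimmest kept its call without any single mouse (highest adjusted p = 0.0438). Within the lower and the higher run of title numbers the brightest probe set changed by 1.76 and 1.02.

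**Figure D2:**
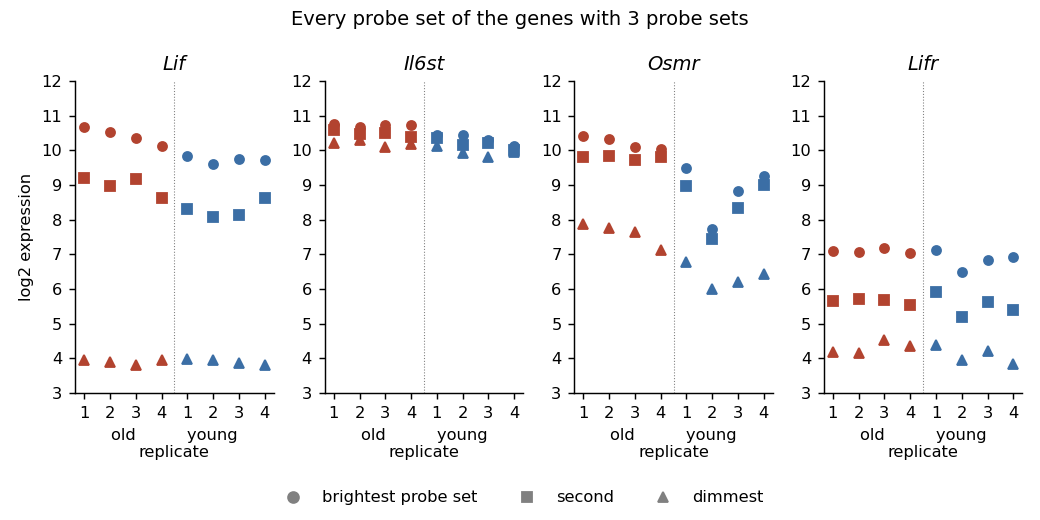
Log2 expression (vertical axis) of each probe set of Lif, Il6st, Osmr and Lifr in every old (red, left) and young (blue, right) mouse, with a circle for the brightest probe set, a square for the second and a triangle for the dimmest. In Osmr all 3 probe sets are higher in each old mouse than in any young mouse and lowest in young replicate 2, while the dimmest probe set of Lif stays between 3.80 and 3.98.

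The Osmr promoter is shown as that of the receptor gene with the widest change, with the same capitals as above.
Osmr, chr15:6874264-6874563, minus strand: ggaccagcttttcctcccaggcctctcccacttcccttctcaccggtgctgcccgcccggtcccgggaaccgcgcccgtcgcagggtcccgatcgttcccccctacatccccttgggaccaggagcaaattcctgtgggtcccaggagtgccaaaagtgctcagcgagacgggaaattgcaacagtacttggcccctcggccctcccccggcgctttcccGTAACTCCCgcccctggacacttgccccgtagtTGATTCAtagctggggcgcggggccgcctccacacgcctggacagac
It held 2 matches, to NF-kappaB from base 221 (on the reverse strand) and to AP-1 from base 254, past the RefSeq start. The Il6st, Lifr and Stat3 windows held none of the 5 motifs. The Il6ra window held 1 match, to NF-kappaB from base 82 (on the reverse strand), and the Socs3 window 1, to STAT from base 97. The NF-kappaB letters used are looser than the usual form. On the reverse strand the Osmr and Il6ra matches have an A for the N before the last C. With 1 more C at the end, the letters matched neither the Osmr nor the Il6ra window. Clcf1 had no window in the table.

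Il6st encodes gp130, the chain that all these cytokines share. Its brightest probe set, 1452843_PM_at, read 10.75, 10.68, 10.73 and 10.73 in old mice, against 10.44, 10.43, 10.29 and 10.13 in young mice. The old mice had an SD of 0.030, and the lowest of them was 0.24 above the highest young mouse. It changed by 0.40 ± 0.080 (SE), or 1.32-fold, with limma adjusted p = 0.0246 over genes. The other 2 probe sets, 1460295_PM_s_at and 1421239_PM_at, differed by 0.30 ± 0.084 and 0.25 ± 0.078 and did not pass (limma adjusted p = 0.113 and 0.169 over all probe sets). Old mice read from 10.39 to 10.60 on the first of these and young mice from 10.02 to 10.37, without overlap. The call of the brightest probe set was lost without old replicates 1, 2, 3 or 4 or young replicate 3, with adjusted p from 0.0511 to 0.0693, while the change lay between 0.34 and 0.44 without any single mouse.

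Il6ra encodes the IL-6 binding chain. Its brightest probe set, 1452416_PM_at, read 10.01, 9.98, 9.83 and 9.71 in old mice, against 9.53, 9.61, 9.64 and 9.62 in young mice. The groups were 0.07 apart and did not overlap, but the difference of 0.28 ± 0.080 (SE) did not pass (limma adjusted p = 0.0956 over genes). The second probe set, 1422270_PM_a_at, spanned 8.64 to 9.39 in old mice and 8.51 to 8.92 in young mice, with a difference of 0.29 ± 0.17 (limma adjusted p = 0.543 over all probe sets).

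Lifr encodes the LIF binding chain, which also pairs with gp130 for several relatives of LIF. Its brightest probe set, 1450207_PM_at, read 7.10, 7.07, 7.19 and 7.05 in old mice, against 7.13, 6.50, 6.84 and 6.92 in young mice. Young replicate 2 was lowest here as in Osmr, and young replicate 1 lay among the old mice. The difference was 0.26, with a 95% confidence interval from -0.014 to 0.52 (limma adjusted p = 0.359). The other 2 probe sets differed by 0.13 and 0.20 and did not pass, and the dimmest, with a mean of 4.20, lay below the dim level.

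**Figure D3:**
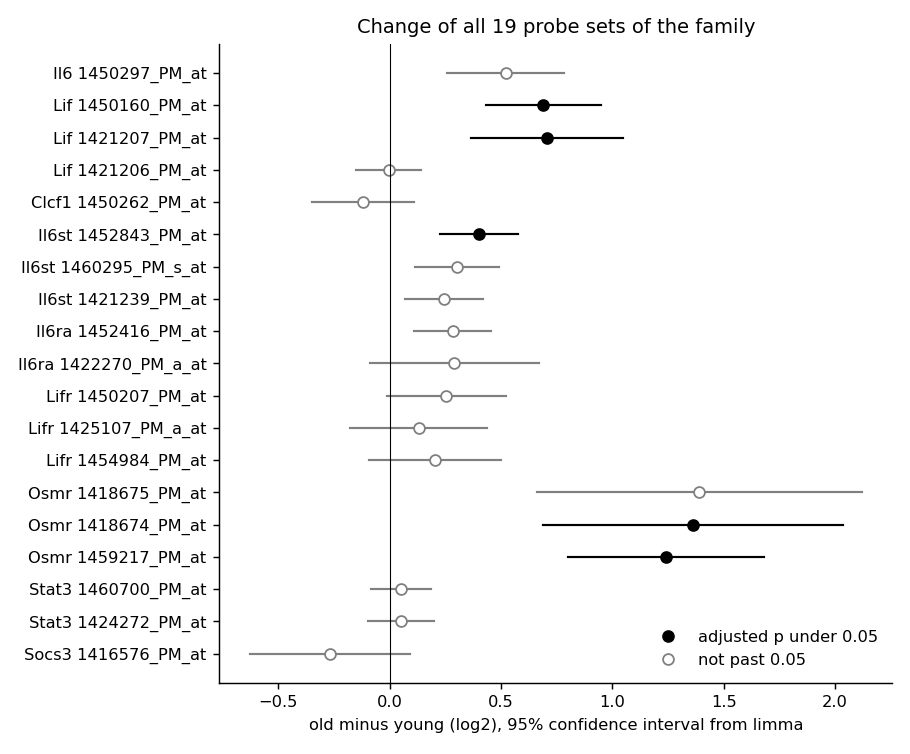
Difference of old minus young mice (horizontal axis, log2) for each of the 19 probe sets, with the 95% confidence interval from limma over all 45037 probe sets. Filled points passed an adjusted p under 0.05: 2 of Lif, 1 of Il6st and 2 of Osmr; the intervals of both Stat3 probe sets lie between -0.10 and 0.20.

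Downstream of the receptors, Stat3 held narrow intervals around 0 and Socs3 was variable. Stat3, the transcription factor that carries the signal to the nucleus, read 10.46, 10.54, 10.39 and 10.50 in old mice and 10.35, 10.43, 10.42 and 10.49 in young mice on 1460700_PM_at. The groups overlapped almost fully. The difference was 0.050, with a 95% confidence interval from -0.094 to 0.19 (limma adjusted p = 0.827), and it was 0.050 on the second probe set as well. Arrays of this kind measure transcript and not phosphorylated STAT3 protein. Socs3, the feedback inhibitor, read 8.80, 9.58, 9.44 and 9.27 in old mice, against 9.75, 9.51, 9.55 and 9.35 in young mice. Old replicate 1 was lowest and young replicate 1 highest. The difference was -0.27, with a 95% confidence interval from -0.62 to 0.089 (limma adjusted p = 0.507), and without old replicate 1 it was -0.11.

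Other genes of the pathway were followed in 7 lists, also chosen with earlier results of these data known. Of 80 listed genes 69 were measured, of which 4 rose and 1 fell, or 7.25% against the 3.97% called among all genes. Of the 69, 63 lay above the dim level. With dim genes left out of the fit, 3 listed genes rose and 1 fell. That was near the 6.38% called among the 10560 genes of that fit. In the fit over all genes, 21 of the 69 had an unadjusted p under 0.05, 15 of them higher and 6 lower in old mice. That was 30.4% against 15.1% of all genes. The remaining ligands were at low levels: Il11, Ctf1 and Il31 were dim in both ages (means from 3.96 to 4.26) and Ebi3 lay at 5.59 in old and 5.60 in young mice, and 0 of these 4 passed (0 at an unadjusted p under 0.05). Osm, the gene of the ligand of Osmr, was not measured. Of the remaining receptor chains 0 of 3 passed (2 at an unadjusted p under 0.05). The interleukin-31 receptor gene Il31ra, whose product pairs with the Osmr chain, read 6.24, 6.30, 6.70 and 6.73 in old mice, against 6.26, 5.83, 5.51 and 6.05 in young mice. Its difference of 0.58 ± 0.17 (SE) did not pass (limma adjusted p = 0.112), and old replicate 1 lay just under young replicate 1. Cntfr, the ciliary neurotrophic factor receptor, differed by 0.25 ± 0.11 and Il27ra by -0.020 ± 0.11, and neither passed.

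Kinases and adaptors gave no call and the negative regulators 1. Of 13 genes for Janus kinases, other STATs and adaptors 0 passed, with a median change of 0.16. At an unadjusted p under 0.05 there were 3 (23.1%, against 15.1% of all genes). Of 14 other negative regulators 1 fell and 0 rose (7.14%, against 3.97% of all genes called), with a median of -0.14. At an unadjusted p under 0.05, 1 was higher and 3 were lower (28.6%, against 15.1% of all genes). The gene that fell was Pias2, of the family of protein inhibitors of activated STAT, which read 9.12, 9.16, 9.25 and 9.25 in old mice, against 9.61, 9.41, 9.72 and 9.56 in young mice. Its change was -0.38 ± 0.079 (SE; limma adjusted p = 0.0289), but other probe sets of Pias2 differed by as little as -0.0225, and the call was lost in 7 of the 8 fits without 1 mouse, all except that without young replicate 2, with an adjusted p of up to 0.154 over all alternatives. The receptor shedding proteases Adam10 and Adam17 did not pass (0 of 2, 0 at an unadjusted p under 0.05).

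Of 27 STAT3 response genes 3 rose and 0 fell, against 1.82% of all genes called higher and 2.15% lower. At an unadjusted p under 0.05 there were 7 higher and 3 lower in old mice (37.0% of the list, against 15.1% of all genes), the lower ones being Fos, Timp1 and Saa3, which did not pass and are named after their values were seen. The median difference was 0.13, against 0.01 for all genes. Of the 27, 26 lay above the dim level, while these shares of all genes include dim ones. With dim genes left out of the fit, 6.38% of its genes were called. Lbp, which encodes the lipopolysaccharide-binding protein, read 8.27, 8.28, 7.83 and 7.89 in old mice, against 6.78, 5.89, 5.98 and 6.63 in young mice. The groups were 1.05 apart, and the change was 1.75 ± 0.21 (SE), with limma adjusted p = 0.00204. A second, dimmer probe set of Lbp differed by 0.035. The AP-1 subunit gene Fosl2 changed by 0.45 ± 0.082 (limma adjusted p = 0.0165, or 0.0538 without old replicate 4; other probe set 0.0175) and Bcl3, an NF-kappaB cofactor, by 0.33 ± 0.075 (limma adjusted p = 0.0427). Bcl3 lost its call in 13 of 17 alternative fits, among them those without each of the 8 mice in turn (adjusted p up to 0.120). With all mice kept and dim genes left out, its limma adjusted p was 0.0562. Saa3, an acute-phase gene, did not pass. It read 6.64, 6.42, 5.69 and 5.36 in old mice and 9.20, 6.48, 7.18 and 7.32 in young mice, a difference of -1.52 ± 0.52 (limma adjusted p = 0.176).

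Of 6 measured regulators of Il6 transcription and mRNA decay 1 rose and 0 fell (16.7%, against 3.97% of all genes called). At an unadjusted p under 0.05 there were 2 (33.3%, against 15.1% of all genes). Nfkb1 and Zfp36 were on this list but were not measured. The gene that rose was Arid5a, which encodes an RNA-binding protein that stabilises Il6 mRNA. It read 7.74, 8.04, 7.79 and 7.95 in old mice, against 7.29, 7.51, 6.90 and 7.32 in young mice. The groups did not overlap, and the change was 0.63 ± 0.13 (SE; limma adjusted p = 0.0269). The call was lost without old replicates 2, 3 or 4 or young replicate 1, with an adjusted p of up to 0.0841. Zc3h12a, the nuclease that degrades Il6 mRNA and the counterpart of Arid5a, differed by 0.25 ± 0.092 and did not pass (limma adjusted p = 0.225). It was chosen for mention after its values were seen.

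**Figure D4:**
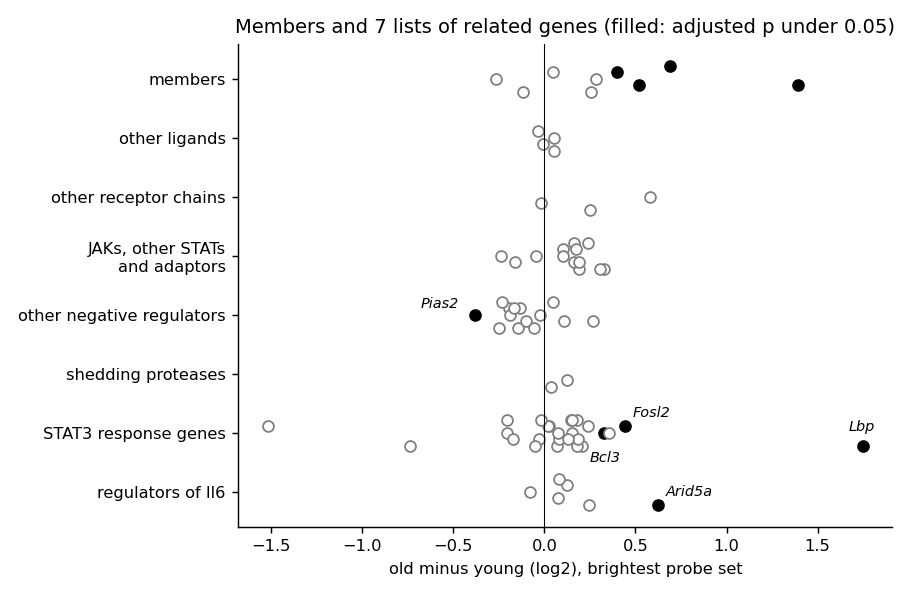
Difference of old minus young mice (horizontal axis, log2, brightest probe set) for the 9 measured members and the genes of 7 related lists, with filled points for an adjusted p under 0.05 in limma over 17097 genes. Of the members 4 are filled, all to the right of 0, and of the 69 related genes 5 are filled: Lbp, Arid5a, Fosl2 and Bcl3 to the right and Pias2 to the left.

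Sizes and calls differed in how much they moved when 1 mouse was left out. Across the fits without 1 mouse, Osmr changed by 1.03 to 1.61, Lif by 0.61 to 0.79, Il6 by 0.42 to 0.59 and Il6st by 0.34 to 0.44. In these fits between 1 and 4 member genes passed. Lif passed in each of the 8, Il6st and Osmr in 3 and Il6 in 2.

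**Figure D5:**
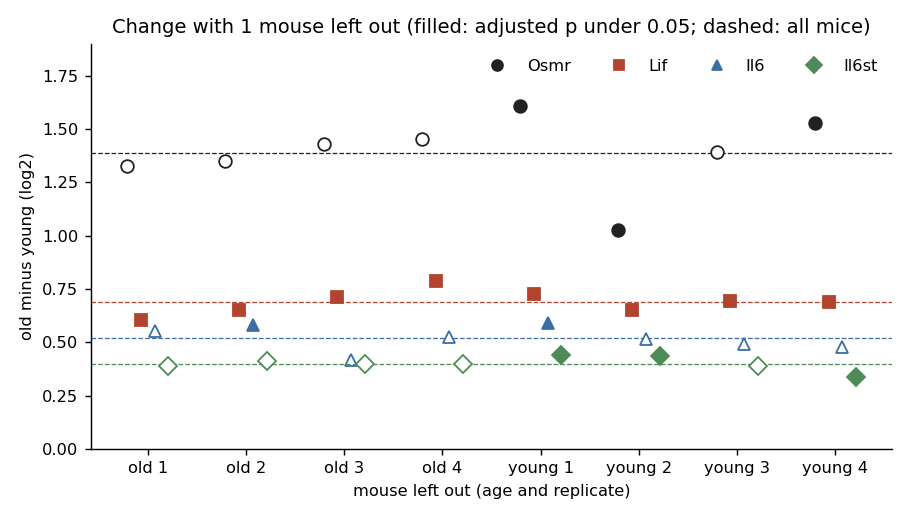
Difference of old minus young mice (vertical axis, log2) for Osmr, Lif, Il6 and Il6st when the mouse named on the horizontal axis is left out, with filled symbols for an adjusted p under 0.05 in limma and dashed lines for all mice. Lif is filled in all 8 fits, and Osmr is lowest, at 1.03, without young replicate 2.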

How the data were processed

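The authors deposited log2 expression values (scale taken from their range) for 45141 probe sets on 8 arrays. The submitters' processing notes name RMA and affy, without versions. For the genome build and any filter, nothing is given in the sources used here. RMA adjusts background, equalises the distributions of arrays and summarises probes. No depth applies, and the number of arrays limits the precision. Each array is a separate mouse.

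The age groups were tested in limma 3.58.1 (R 4.3.3) with moderated 2-sided tests and Benjamini-Hochberg adjustment, old minus young, once over the brightest probe set of each of 17097 genes and once over all 45037 probe sets that are not controls. Unless marked "over all probe sets", adjusted p, SE and intervals of a gene's brightest probe set come from the first fit, and those of other probe sets from the second. Names came from the platform annotation, in which 28898 probe sets had 1 symbol. Members and lists were chosen with earlier results of these data known, and the motifs with the sequences in view. The NF-kappaB letters are looser than the usual form, since they allow any base before the C they end in. They also leave out a further C at the end, a change made after matches to the longer form had been seen. The longer form matched the Il6 window but neither the Osmr nor the Il6ra window. The text names all members, list genes past the threshold (at most 4 a list), remaining ligands and receptors, and the 3 genes nearest in pattern to Il6 and to Lif. Marker levels were summed on the linear scale and are given as log2. Alternatives changed the prior, array weights, the filter on dim probe sets, array scaling, the choice of probe set and the set of mice, and added the run of title numbers as a block. Collection day is not given per mouse. On simulated arrays of 17097 genes, old against young, 59.6%, 90.8%, 99.6% and 100% of genes changed by 0.5, 1, 2 and 3 (log2) were recovered. Each simulation changed 50 genes at each size and had independent normal noise. The shares hold for that setting, which has fewer changed genes than the 679 called in the data.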

Additional observations from a re-analysis of the deposited data

Results flagged for a closer look

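Of 74 groups of 4 mice checked, over the member probe sets and the other named genes, 3 held a mouse far from the rest, while chance gives about 1 in 20. All 3 were young mice and none concerned a member. Young replicate 4 had 9.27 for Fosl2, with the next young mouse at 9.53. Young replicate 1 had 5.90 for Il27ra, with the next at 5.72. Young replicate 1 had 9.16 for Nop14, with the next at 9.24.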

How the results depend on the processing

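With arrays centred on their median, 2 member genes were called higher in place of 4, since Il6 (adjusted p = 0.0579) and Osmr (0.0550) no longer passed, and 3 member probe sets in place of 5. The cause was not tested. With the dimmest probe set above the dim level, 2 related genes were called higher in place of 4. Of those 4, only Arid5a kept its call, and Lbp, Fosl2 and Bcl3 lost it (limma adjusted p = 0.890, 0.960 and 0.0608). Il6st did not pass in this setting either (change 0.25, adjusted p = 0.180). With a prior by mean level and with the mean of probe sets, 0 related genes were called lower in place of 1. The second probe sets of Lif and Osmr missed the threshold under up to 3 of the settings that keep all mice (adjusted p up to 0.0595 and 0.0596). Leaving out single mice, which removes samples, gave 1 to 4 member genes and 1 to 5 member probe sets called higher, 1 to 4 related genes called higher and 0 to 2 called lower. The dim probe set of Lif, near 0 throughout, then changed by -0.038 to 0.026. No member was called lower under any of these alternatives, and Lif was called in all 17. The block by run of title numbers kept 4 member genes, 5 member probe sets and 4 and 1 related genes called. No paired analysis was possible because each title has a number of its own and none pairs an old with a young mouse. Signal limits the dim probe sets of Lif and Lifr, and Il6 lies within the range of the non-specific controls.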

Other observations

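Among 10559 genes above the dim level, those whose values over the 8 arrays, each centred on its own mean, lay nearest to Il6 were Egfr, Adamtsl4 and Avpi1, with root mean square differences of 0.105, 0.107 and 0.108 (log2). They changed by 0.58, 0.52 and 0.57 between old and young mice. Nearest to Lif were 4933411K16Rik, Uap1 and Nop14, at 0.106, 0.108 and 0.126, with changes of 0.61, 0.72 and 0.66. This likeness rests mainly on the age difference that these genes share and is a description of 8 arrays.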
